A study of Mus musculus with 21 samples.

Results

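Copy number at the olfactory and vomeronasal receptor genes was examined in 21 liver tumours of mice with NASH. The members were all autosomal array probes whose gene name starts with Olfr (odorant receptors), Vmn or V1r and V2r (vomeronasal receptors), which gave 824 of 91879 autosomal probes and 718 of 22395 named autosomal genes. Of these genes 619 were Olfr, 53 Vmn1r and 46 Vmn2r. Receptor probes of one chromosome less than 1 Mb apart were joined into a cluster, which gave 60 clusters, and the 15 clusters with at least 5 receptor probes on each of 2 array designs were tested, with 606 of the probes and 526 of the genes. The other 45 clusters hold 1 to 19 probes each and are described without a test. Chromosome 7 carried 195 of the probes, chromosome 2 carried 177 and chromosome 9 carried 93, while chromosomes 12 and 18 carried 0.

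Tumour DNA came from fixed, paraffin-embedded liver of C57BL/6 mice and was hybridized against a reference pool of the same strain, which the sample labels call liver tails. All mice were kept for 12 months on CD-HFD, a high-fat diet without choline on which mice develop NASH. The CD-HFD group was 9 tumours of 7 mice with no antibody. The anti-PD1 group was 12 tumours of 7 mice that also received anti-PD1, an antibody against the PD1 checkpoint of T cells, for 8 weeks. The leading number of a sample name was read as the mouse, and only tumour-bearing mice enter. Tumour DNA carried Cy3 and the reference Cy5 on every array, with no dye swap, so that an offset shared by all tumours may belong to the tumours, to the probe or to the reference, and these cannot be told apart.

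Each odorant receptor gene encodes a receptor with a chain of membrane-spanning helices, its coding region usually lies in a single exon, and an olfactory neuron uses one allele of one such gene. The genes arose by tandem duplication and sit in long, AT-rich clusters, and they are used mainly in the nose, though some are expressed in other tissues. Vmn1r and Vmn2r receptors serve the vomeronasal organ, where Vmn1r receptors couple to Gnai2 and Vmn2r receptors, which have a long extracellular domain for peptides and proteins, couple to Gnao1. Repeats and copies within the clusters make them frequent sites of copy number variation between mouse strains.

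Most receptor probes lay in coding exons, 696 of 824 (84.5%), with 87 (10.6%) in introns, 31 (3.76%) in UTRs, 7 (0.85%) in non-coding exons and 3 between genes. The probes below show what these measurements rest on. The first 6 belong to genes named by a fixed rule (the extremes among genes with several probes on each design, and the smallest p between groups), and Olfr523 and Olfr195 were added after their values were seen, as a strongly low and a strongly high receptor gene. Capitals mark G and C, coordinates are those of the array (mm9), and each probe reads along the plus strand of GRCm38, where it matched exactly at 1 place.
Olfr553, chr7:109762529-109762584: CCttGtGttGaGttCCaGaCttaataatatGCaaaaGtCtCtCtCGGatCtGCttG
Olfr736, chr14:51012936-51012984: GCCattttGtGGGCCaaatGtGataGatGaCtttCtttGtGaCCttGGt
Olfr769, chr10:128548517-128548576: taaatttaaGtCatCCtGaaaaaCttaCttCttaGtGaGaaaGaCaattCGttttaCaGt
Olfr1033, chr2:85882363-85882422: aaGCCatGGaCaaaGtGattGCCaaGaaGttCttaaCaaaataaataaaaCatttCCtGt
Olfr1180, chr2:88252760-88252819: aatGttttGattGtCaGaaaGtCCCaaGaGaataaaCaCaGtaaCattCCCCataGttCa
Olfr1043, chr2:86002973-86003032: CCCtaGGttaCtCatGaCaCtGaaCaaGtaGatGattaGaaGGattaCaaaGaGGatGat
Olfr523, chr7:147362656-147362707: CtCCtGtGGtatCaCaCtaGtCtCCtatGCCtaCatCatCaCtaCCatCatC
Olfr195, chr16:59149561-59149620: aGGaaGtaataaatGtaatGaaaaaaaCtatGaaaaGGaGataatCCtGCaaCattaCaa
The low Olfr523 probe holds 46.2% G and C, the highest share of the 8, and the high Olfr195 probe 26.7%, the lowest. Of the receptor probes 16 (1.94%) had a further near match in the genome (at least 90% identity over at least 90% of the probe), against 0.455% of the other autosomal probes.

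Values are log2 ratios of tumour over reference, centred on the median of the array, minus the mean of the same chromosome in the same tumour, so that 0 is the level of the chromosome and not a known number of copies. Slide 1 carried array design 1, and slides 2 and 3 carried design 2, and the designs share only 176 of the 824 receptor probes. The cluster and family means of the designs therefore rest largely on different probes, and the design cannot be told apart from slide 1. In the tumour channel at least 65.0% of spots were well above background (median 96.5%), and 4 of the 21 tumours stayed under 90%. Precision is limited by the number of arrays.

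The families were first compared by their mean level against the chromosome, as a description with no test. Over the 708 Olfr probes the tumour means ran from −0.18 to 0.11, with a median of −0.05, and lay below 0 in 14 of 21 tumours. For Vmn1r the lowest, median and highest tumour means were −0.07, 0.16 and 0.34, above 0 in 18 tumours, and for Vmn2r they were 0.02, 0.19 and 0.42, above 0 in all 21. In mouse means Olfr stood at −0.029 ± 0.069, Vmn1r at 0.17 ± 0.084 and Vmn2r at 0.22 ± 0.073 (SD, n = 14 mice each), so most Olfr means lay below and the vomeronasal means above the chromosome. The level of Vmn2r turned with the probe set: over the 5 Vmn2r probes common to both designs it was −0.050 (mean of mice), and with the authors' loess-normalized ratios −0.083.

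**Figure D1:**
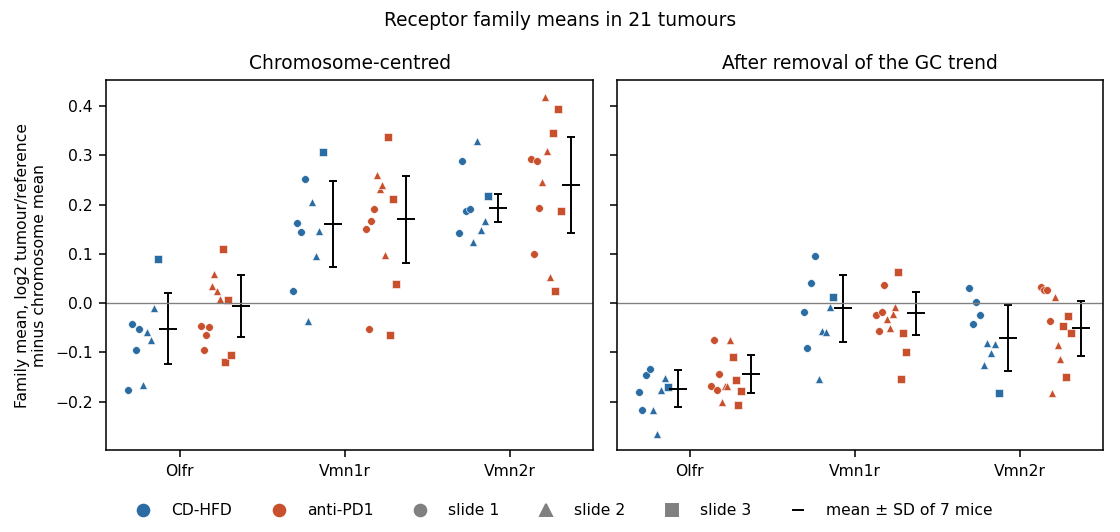
Mean log2 tumour over reference of each receptor family minus the chromosome mean, 1 point per tumour, coloured by group and shaped by slide, with the mean and SD of 7 mice per group in black; the second panel shows the same with the GC trend of each array removed. Vmn2r means lie above 0 in all 21 tumours, and after removal of the GC trend the Olfr means lie below 0 in all 21.

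Treatment groups overlapped in every family. In mouse means, Olfr stood at −0.0057 ± 0.063 (SD, n = 7 mice) with anti-PD1 and at −0.052 ± 0.072 (SD, n = 7) on CD-HFD alone. Vmn1r stood at 0.17 ± 0.088 and 0.16 ± 0.086, and Vmn2r at 0.24 ± 0.097 and 0.19 ± 0.029 (SD, n = 7 each). The differences of 0.046, 0.0094 and 0.047 were smaller than the SD between mice of the anti-PD1 group in each family, and that of Vmn2r was larger than the SD of the CD-HFD group. On slide 3 alone, with 4 anti-PD1 tumours and 1 CD-HFD tumour, the Olfr difference was −0.12 and the Vmn1r difference −0.18, and over common probes the Vmn2r difference was −0.030.

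Base composition differed between receptor and other probes, and between the families. The 50 kb of genome around a receptor probe held 38.6 ± 2.25% G and C (SD over probes), against 43.5 ± 4.30% around the other autosomal probes. Over all families together, the probes themselves were alike at 36.4% and 36.5%. By family, Olfr, Vmn1r and Vmn2r probes held 36.8%, 35.3% and 33.4%, and the 50 kb around them 38.6%, 39.2% and 37.9%. In 20 of 21 tumours the log2 ratio of the other probes fell with the GC content around them, with a median slope of −0.32 per 10 percentage points. With this trend removed within each array, the family means ran from −0.26 to −0.07 for Olfr, from −0.15 to 0.10 for Vmn1r and from −0.18 to 0.03 for Vmn2r, with 0, 5 and 6 of 21 tumours above 0. The positive level of the vomeronasal families was thus not seen after this correction, and the Olfr level was lower. Across the 824 receptor probes, which share arrays and neighbourhoods, the probe mean correlated with the GC content of the probe at r = −0.47 and with that around it at r = −0.25.

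Levels also moved with the position of the probe. The 699 receptor probes that overlap a coding exon averaged −0.02 and the other 125 averaged 0.23, or −0.17 and 0.03 with the GC trend removed. The 2185 other probes that lie inside the same clusters averaged 0.09, and −0.05 with the trend removed. They were above 0 in all 21 tumours before the correction and below 0 in 20 after it. The coding sequences of the receptors were thus lower than the sequence between them on average, before and after the correction. Among the other probes inside the clusters, the 144 in coding exons averaged −0.015 and the 2041 not in coding exons 0.095. With the trend removed these were −0.043 and −0.050. Before the correction, coding probes of receptors and of other genes in the clusters thus stood at a similar level. Outside the receptors, the 11468 other autosomal probes in coding exons averaged 0.05, or 0.09 with the trend removed.

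Against their chromosome, 4 of the 15 tested clusters were lower and 4 were higher in limma (two-sided, threshold of 0.05 after Benjamini-Hochberg adjustment over 2122 regions). This is 26.7% each way, where 30.7% of all regions were lower and 44.5% were higher, so before any correction for base composition receptor clusters were called no more often than 1-Mb windows of the genome. The fitted means of the clusters ran from −0.15 to 0.44 with a median of 0.03, beside 0.03 for all regions. The direction changed with the removal of the GC trend, and the cause was not tested. After it 12 clusters (80%) were lower and 1 (6.67%) was higher, where 32.7% of all regions were lower and 31.7% higher. The 50-kb GC content of the 15 clusters ranged only from 36.1 to 39.6%, and the other probes inside each cluster averaged −0.02 to 0.25.

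**Figure D2:**
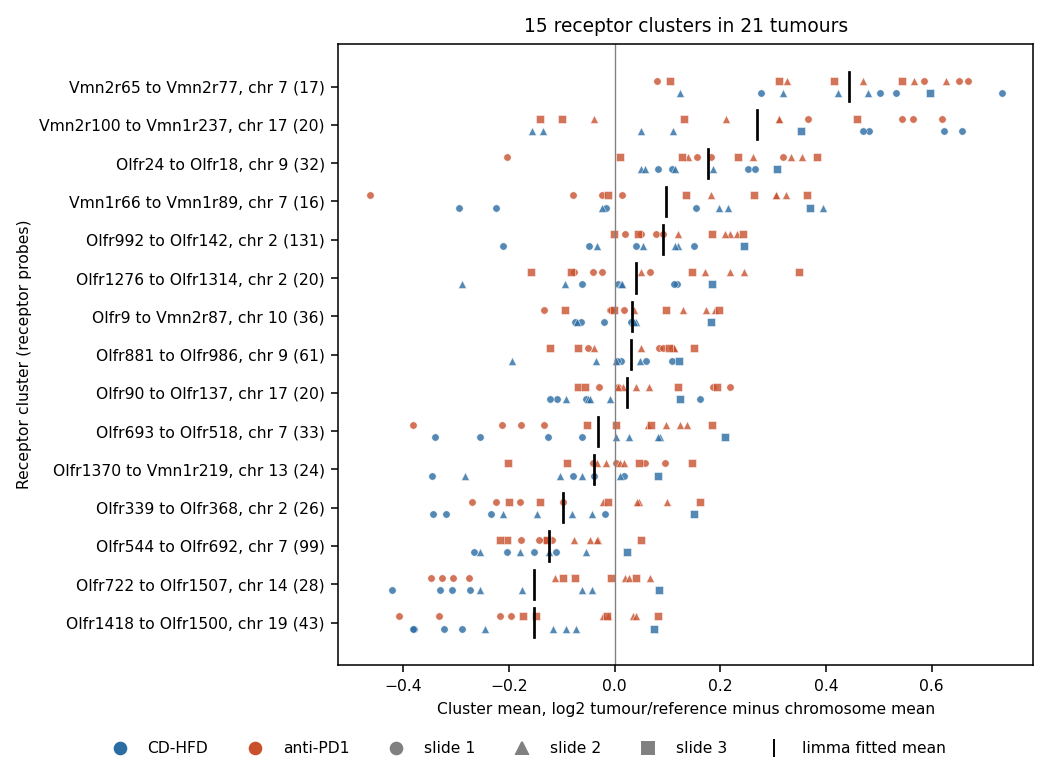
Mean over the receptor probes of each of the 15 tested clusters, log2 tumour over reference minus the chromosome mean, with 1 point per tumour coloured by group and shaped by slide and a bar at the limma fitted mean. The Vmn2r65 to Vmn2r77 cluster lies above 0 in all 21 tumours, and most tumours of slide 1 lie to one side of those of slides 2 and 3 in the Olfr1418 to Olfr1500, Olfr722 to Olfr1507 and Vmn2r100 to Vmn1r237 clusters.

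All 4 clusters below their chromosome were pure Olfr clusters, as were most of the tested clusters, including some of those above their chromosome. The largest of them, Olfr544 to Olfr692 (chr7:109635066-112517840, 99 probes of 87 genes), surrounds the beta-globin genes and holds mostly class I odorant receptors, the fish-like class. Its tumour values were −0.22, −0.12 and 0.05 (lowest, median, highest) with anti-PD1 and −0.27, −0.15 and 0.02 on CD-HFD. The groups overlapped, and 19 of 21 tumours lay below 0. The fitted mean was −0.12 (standard error 0.019, adjusted p = 2.08e-06 in limma). Removal of the GC trend gave −0.25.

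The Olfr1418 to Olfr1500 cluster (chr19:11929458-13902248, 43 probes of 38 genes) and the Olfr722 to Olfr1507 cluster (chr14:50513994-53112797, 28 probes of 21 genes, next to the T cell receptor alpha and delta genes) had the lowest fitted means, both −0.15. In the first, values were −0.41, −0.09 and 0.08 with anti-PD1 and −0.38, −0.25 and 0.08 on CD-HFD (lowest, median, highest). In the second they were −0.35, −0.09 and 0.07 with anti-PD1 and −0.42, −0.25 and 0.08 on CD-HFD. The groups overlapped in both clusters, and 17 and 16 tumours lay below 0. Standard errors were 0.032 in each, with adjusted p of 0.000159 and 0.00017 in limma. The array design moved with the values here, with means of −0.32 on design 1 and −0.05 on design 2 in both clusters. Over the 10 and 8 probes common to both designs the 2 clusters averaged −0.43 and −0.42 on design 1 and −0.37 and −0.36 on design 2, below 0 in 21 of 21 tumours each. On the same probes the designs were thus closer to each other. When gaps of at most 0.5 Mb were joined, the fitted mean of the chromosome 14 cluster was −0.09 and no longer passed.

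The Olfr339 to Olfr368 cluster on chromosome 2 (chr2:36277315-37187922, 26 probes of 22 genes) had a fitted mean of −0.10 (standard error 0.030, adjusted p = 0.00494 in limma). Its anti-PD1 tumours ran from −0.27 to 0.16 (median −0.06) and its CD-HFD tumours from −0.34 to 0.15 (median −0.15), and 16 of 21 lay below 0. Against the other probes within 5 Mb on either side, in place of the whole chromosome, the mean was −0.03 and did not pass.

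Above the chromosome stood 2 Olfr clusters and 2 vomeronasal clusters. The Olfr992 to Olfr142 cluster (chr2:85240363-90092398), the largest on the arrays with 131 probes of 114 genes, had values of −0.00063, 0.11 and 0.24 with anti-PD1 and −0.21, 0.05 and 0.25 on CD-HFD (lowest, median, highest). The groups overlapped, 17 of 21 tumours lay above 0, and the fitted mean was 0.09 (standard error 0.024, adjusted p = 0.0012 in limma). The sign did not survive removal of the GC trend, which gave −0.15 (adjusted p = 1.69e-07 in limma), and the mean fell short of the threshold with the authors' loess-normalized ratios (0.04), over common probes (0.03), with the median over probes (0.04) and over probes well above background (0.0018).

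The Olfr24 to Olfr18 cluster (chr9:18559774-20133250, 32 probes of 26 genes) had a fitted mean of 0.18 (standard error 0.028, adjusted p = 4.27e-06 in limma). Its values were −0.20, 0.21 and 0.38 with anti-PD1 and 0.05, 0.11 and 0.31 on CD-HFD, and only 1 tumour, of the anti-PD1 group, lay below 0. With the GC trend removed it was −0.02 (adjusted p = 0.238 in limma), and with the loess-normalized ratios −0.01.

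The Vmn2r65 to Vmn2r77 cluster on chromosome 7 (chr7:92095654-93946230, 11 Vmn2r and 6 Olfr probes of 13 genes) was the highest of the 15. Its values were 0.08, 0.51 and 0.67 with anti-PD1 and 0.12, 0.48 and 0.73 on CD-HFD. The groups covered the same range, and every tumour lay above 0. The fitted mean was 0.44 (standard error 0.037, adjusted p = 1.83e-10 in limma), on both designs (0.50 and 0.41). It was the only tested cluster that stayed above its chromosome with the GC trend removed, at 0.14 (adjusted p = 1.43e-05 in limma) and above 0 in 18 of 21 tumours. Of its 17 probes only 5 lay in coding exons and 0 were common to both designs, so it could not be followed on the same probes. The 48 other probes inside the cluster averaged 0.25, and −0.03 with the GC trend removed.

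In the Vmn2r100 to Vmn1r237 cluster (chr17:19642985-21451020, 13 Vmn1r and 7 Vmn2r probes of 19 genes), near the formyl peptide receptor genes, the fitted mean was 0.27 (standard error 0.054, adjusted p = 9.23e-05 in limma). Values were −0.14, 0.31 and 0.62 with anti-PD1 and −0.16, 0.35 and 0.66 on CD-HFD. The groups covered a similar range. On design 1 all tumours lay between 0.37 and 0.66, and on design 2 between −0.16 and 0.46, and the cause of this difference was not tested. Removal of the GC trend left −0.07 (adjusted p = 0.318 in limma). This mean joins 2 levels, with tumours between 0.17 and 0.39 on design 1 and between −0.44 and 0.01 on design 2.

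The Vmn1r66 to Vmn1r89 cluster (chr7:10859559-13805538), which has the most Vmn1r probes, 15 of its 16, did not pass. Its fitted mean was 0.10 (standard error 0.046, adjusted p = 0.0578 in limma), with tumours between −0.46 and 0.37 with anti-PD1 and between −0.30 and 0.39 on CD-HFD. It averaged −0.12 on design 1 and 0.23 on design 2, and −0.08 with the GC trend removed.

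The other 6 tested clusters had fitted means from −0.04 to 0.04 and passed neither way. They were Olfr1370 to Vmn1r219 on chromosome 13, Olfr693 to Olfr518 on chromosome 7, Olfr90 to Olfr137 on chromosome 17, Olfr881 to Olfr986 on chromosome 9, Olfr9 to Vmn2r87 on chromosome 10 and Olfr1276 to Olfr1314 on chromosome 2. In Olfr693 to Olfr518 the designs lay apart, at −0.21 on design 1 and 0.08 on design 2, and over common probes at −0.20 and −0.14, below 0 in 19 of 21 tumours. The 45 untested clusters had probe means from −1.09 to 1.59, with a median of −0.09, and 19 lay above 0 and 26 below. Both extremes were single probes, of Olfr460 and Vmn1r32.

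**Figure D3:**
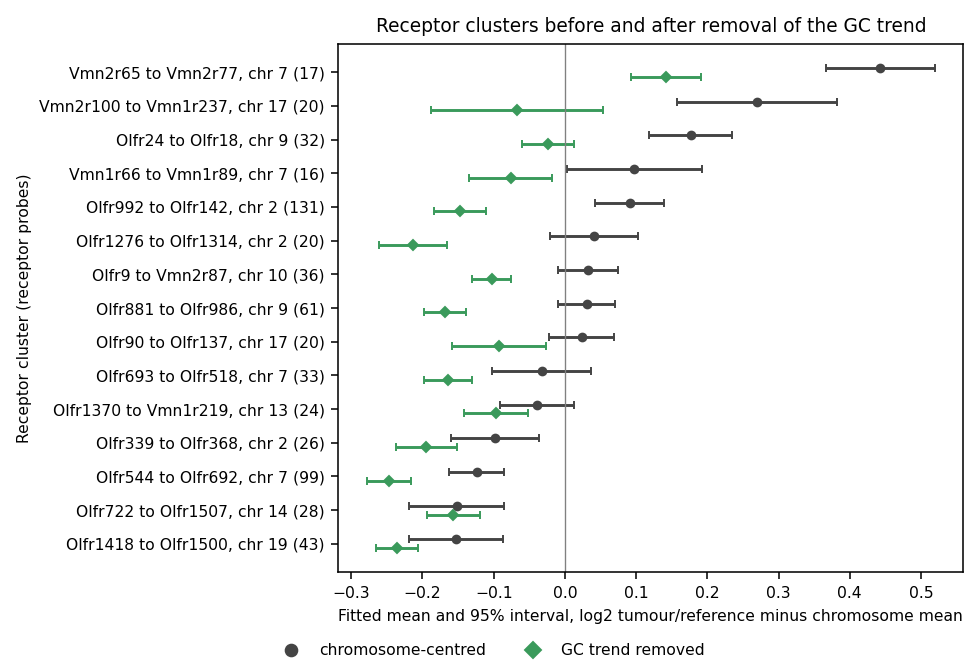
Limma fitted mean and 95% interval of each tested cluster against its chromosome, from the chromosome-centred log2 ratios (circles) and with the GC trend of each array removed (diamonds). After the correction 12 of 15 clusters lie below 0 past the threshold, and Vmn2r65 to Vmn2r77 is the only one above it.

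Within a cluster, probes stood at very different levels. In the Olfr992 to Olfr142 cluster the probe means ran from −0.92 to 1.73 with 75 of 131 above 0, and in Olfr544 to Olfr692 they ran from −1.04 to 1.30 with 37 of 99 above 0. Neighbouring receptor probes of different genes correlated at r = 0.11 over 620 pairs, and 50 pairs of probes within one receptor gene at r = −0.08, with a median difference of 0.43 on the log2 scale. For pairs 60 to 1000 bases apart r was 0.18 within receptor genes (31 pairs) and 0.41 among other autosomal probes (1113 pairs). Probes of one receptor gene thus often stood at different levels. The same probe gave nearly the same value on both designs: means over tumours correlated at r = 0.97 between designs over the 176 common receptor probes, and at 0.96 over 12106 other common probes, each set sharing 1 reference. The SD between mice of a common probe was 0.206 for receptor probes and 0.202 for others (medians), well below the 0.51 SD between receptor probes.

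**Figure D4:**
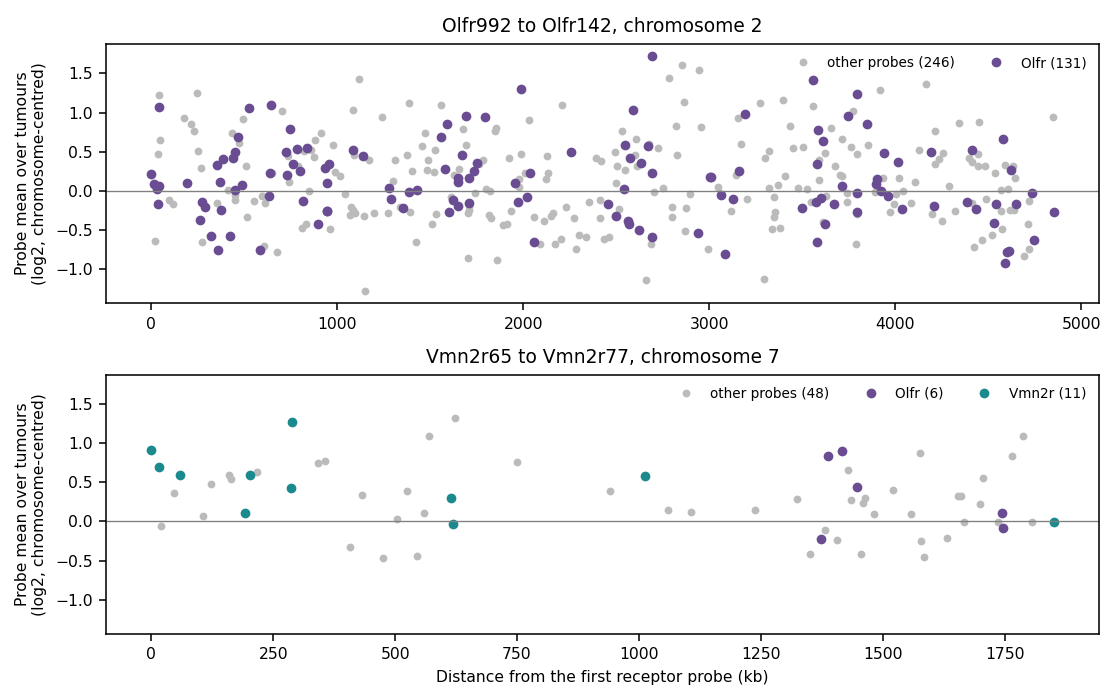
Mean over tumours of each probe (log2 tumour over reference minus the chromosome mean) against the distance in kb from the first receptor probe of the cluster, in an odorant and a vomeronasal cluster, with receptor probes coloured by family and other probes in grey. High and low Olfr probes alternate along the chromosome 2 cluster, while the Vmn2r probes at the start of the chromosome 7 cluster all lie above 0.

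Of the 718 receptor genes, 189 had a probe on each design and could be fitted together. In limma 81 of them (42.9%) lay below the chromosome at an adjusted p under 0.05 and 63 (33.3%) above, where 36.2% of all 12822 fitted genes were below and 35.1% above. Fitted values of receptor genes ran from −1.18 to 1.94 with a median of −0.03, beside −0.0036 for all genes. With the GC trend removed 105 receptor genes (55.6%) were below and 34 (18%) above, beside 30.0% and 35.2% of all genes.

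Only 5 receptor genes had several probes on each design. All are odorant receptor genes. Olfr553 in the class I cluster of chromosome 7 had values of −0.50, −0.22 and 0.04 with anti-PD1 and −0.71, −0.27 and −0.05 on CD-HFD (lowest, median, highest), below 0 in all but 1 tumour. Its fitted mean was −0.27 (standard error 0.046, adjusted p = 1.59e-05 in limma), but with the loess-normalized ratios it was 0.03. Its 3 probes averaged −0.29, 0.01 and −0.73. Olfr736 on chromosome 14 did not pass, at −0.08 (standard error 0.040, adjusted p = 0.0739 in limma), with probes at 0.11, −0.27 and 0.02.

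Olfr1033 on chromosome 2 was the highest of the 5, with values of 0.26, 0.51 and 1.09 with anti-PD1 and 0.21, 0.71 and 0.89 on CD-HFD, above 0 in every tumour. Its fitted mean of 0.60 (standard error 0.052, adjusted p = 3.1e-10 in limma) was carried by the coding exon probe printed above, at 1.09, while its 2 intron probes averaged −0.07 and 0.23. Olfr769 on chromosome 10 had a fitted mean of 0.23 (standard error 0.033, adjusted p = 1.27e-06 in limma). The printed probe, with 28.3% G and C, averaged 0.69, and its other probes averaged −0.14 and 0.13. Olfr56 on chromosome 11 passed at 0.15 (standard error 0.064, adjusted p = 0.0443 in limma), but on slide 1 alone it was −0.15 and with the loess-normalized ratios −0.17, and leaving out any of 8 of the 14 mice ended the call. Most of its probes lie in introns.

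The most extreme receptor genes were each measured by 1 probe and are given because of their values. Lowest were Olfr523 (−1.18), Vmn2r87 (−1.05), Olfr569 (−1.03), Olfr1339 (−0.99) and Olfr96 (−0.99), each below 0 in all 21 tumours. Highest were Olfr112 (1.94), Olfr195 (1.64), Vmn1r32 (1.59), Olfr902 (1.23) and Olfr1158 (1.03), each above 0 in every tumour with a value. In each of these genes both groups lay on the same side of 0. With the GC trend removed they kept their signs, at −0.75 for Olfr523 and 1.53 for Olfr112. Olfr96 and Olfr112 both lie in the MHC-linked Olfr90 to Olfr137 cluster on chromosome 17 and are its lowest and highest probes, while the fitted mean of the cluster was 0.02.

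Between anti-PD1 and CD-HFD tumours no receptor cluster passed the test. In limma 0 of 15 clusters passed at an adjusted p under 0.05, as did 0% of all regions, and 0 of 15 had an unadjusted p under 0.05, beside 34 of 2122 regions (1.6%). With array weights, which count noisier arrays less, limma again called 0, but 6 clusters (40%) had an unadjusted p under 0.05, all higher with anti-PD1, beside 17.6% of all regions. The estimates, anti-PD1 minus CD-HFD, ran from −0.0041 to 0.09, and 14 of 15 were above 0, where 57.3% of all regions were. All of the clusters share the same arrays, so these 14 are not independent. The smallest p belonged to the Olfr1370 to Vmn1r219 cluster on chromosome 13 (chr13:21164299-23255469, 12 Olfr and 12 Vmn1r probes), beside a histone gene cluster. Its values were −0.20, 0.0071 and 0.15 with anti-PD1 and −0.35, −0.06 and 0.08 on CD-HFD. The overlap was wide, and the estimate was 0.09 (standard error 0.048, 95% interval −0.0089 to 0.19).

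The MHC-linked cluster Olfr90 to Olfr137 (chr17:37222221-38441638, 20 probes of 20 genes) came next. Its anti-PD1 tumours ran from −0.07 to 0.22 (median 0.03) and its CD-HFD tumours from −0.12 to 0.16 (median −0.05), and the estimate was 0.08 (standard error 0.043, 95% interval −0.0082 to 0.17). In both clusters the group difference was above 0 on slides 1 and 2 (0.14 and 0.10 on chromosome 13, 0.13 and 0.08 on chromosome 17) and below 0 on slide 3 (−0.11 and −0.08), where a single CD-HFD tumour was measured. With the loess-normalized ratios both estimates turned, to −0.0034 and −0.02. For the Vmn2r65 to Vmn2r77 cluster the estimate was 0.0016, with a 95% interval from −0.16 to 0.16.

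**Figure D5:**
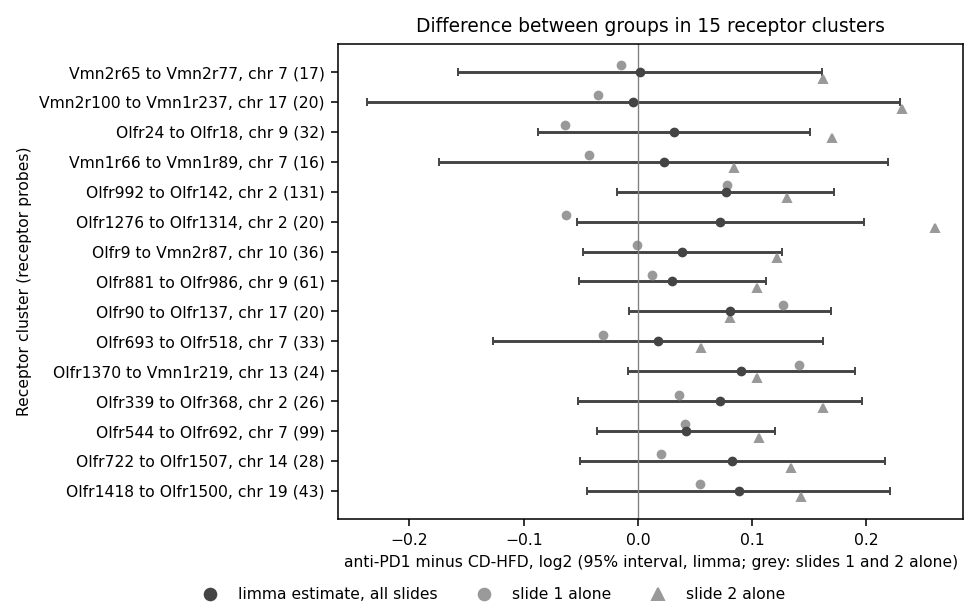
Group difference (log2, anti-PD1 minus CD-HFD) in each tested cluster, with the limma estimate and its 95% interval in black and the differences within slide 1 and within slide 2 in grey. Estimates run from −0.0041 to 0.09, and every interval includes 0.

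No single receptor gene passed either. In limma 0 of 189 receptor genes and 0% of all genes differed at an adjusted p under 0.05. At an unadjusted p under 0.05 there were 15 receptor genes (7.94%), 13 higher and 2 lower with anti-PD1, beside 410 of all 12822 genes (3.2%), split 205 and 205. These counts and their direction moved with the processing. With array weights there were 33 receptor genes (17.5%) beside 8.35% of all genes, 25 higher and 8 lower with anti-PD1. With normexp background correction there were 7 (3.7%) beside 1.35%, but 2 were higher and 5 lower. With 1 mean per mouse 7 were higher and 4 lower. At an adjusted p under 0.05 there were 0 under each of these settings. The genes share the same arrays, so these counts are not of independent genes. Estimates lay above 0 for 124 of the 189 (65.6%), against 51.4% of all genes. Olfr1180 and Olfr1043, both single-probe genes of the large chromosome 2 cluster, had the smallest p.

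Olfr1180 had values of 0.11, 0.27 and 0.50 with anti-PD1 and −0.28, 0.04 and 0.28 on CD-HFD, an estimate of 0.23 (standard error 0.074, adjusted p = 0.9998 in limma). Olfr1043 had 0.30, 0.41 and 0.73 with anti-PD1 and −0.17, 0.21 and 0.55 on CD-HFD, an estimate of 0.24 (standard error 0.082, adjusted p = 0.9998 in limma). In both the medians differed while the ranges overlapped. Within slides 1, 2 and 3 the differences were 0.13, 0.38 and 0.01 for Olfr1180 and 0.07, 0.44 and 0.20 for Olfr1043. The widest receptor gene difference, seen after the values were known, was the single Vmn1r32 probe on chromosome 6, with 0.52, 1.19 and 2.08 with anti-PD1 and 0.10, 2.20 and 2.97 on CD-HFD. Its estimate was −0.73 (standard error 0.273, adjusted p = 0.9998 in limma), with −0.69, −0.79 and −0.74 within the 3 slides.

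In single tumours, a cluster mean at least 0.2 below the chromosome was seen in 41 of 315 values (13%) and at least 0.2 above in 58 (18.4%), beside 10.6% and 17.3% of the values of all regions. Of the 58 high values, 18 came from the Vmn2r65 to Vmn2r77 cluster and 13 from Vmn2r100 to Vmn1r237. Of the 41 low values, 9 came from Olfr722 to Olfr1507 and 8 from Olfr1418 to Olfr1500. The Olfr881 to Olfr986 and Olfr9 to Vmn2r87 clusters reached 0.2 in neither direction in any tumour. The SD between mice was 0.068 to 0.26 over the 15 clusters (median 0.11), against a median of 0.084 over 1-Mb windows. Low values were unevenly spread over the slides, with 26.7% of the cluster values of slide 1, 5% of slide 2 and 4% of slide 3, beside 10%, 10.7% and 11.2% of all region values on these slides.

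Lesions of one mouse were compared over the 15 clusters. On one array design, 6 pairs of lesions that share a mouse differed by a median of 0.15 in absolute value, and 100 pairs from different mice by 0.10 (medians over pairs, with no test because pairs share tumours). Apart from lesions 2 and 3 of mouse 2094 (0.23), each of these pairs of one mouse held a low-signal tumour. Low-signal here means under 90% of tumour spots well above background, so these medians may reflect signal as well as the mouse. Across designs the medians were 0.15 for 3 pairs of one mouse and 0.17 for 101 pairs of different mice. The closest were lesions 1 and 3 of mouse 2094 (0.019). Between these lesions of one anti-PD1-treated mouse the Olfr mean was 0.03 and 0.06.

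Other genes of smell and pheromone sensing were followed from a list, of which 21 had a probe on each design. The list covers the signalling chain, receptor choice, axon guidance, and the trace amine and formyl peptide receptors. Below their chromosome in limma were 7 and above it 4, and 10 passed neither way. These are 33.3% and 19.0% of the 21, beside the 36.2% and 35.1% of all genes above. With the GC trend removed 10 (47.6%) were below and 3 (14.3%) above, beside 30.0% and 35.2% of all genes. Lowest were Lhx2, a transcription factor needed for odorant receptor choice (−0.54, standard error 0.049, adjusted p = 6e-10 in limma), Gnai2, the G protein of Vmn1r neurons (−0.49, standard error 0.065, adjusted p = 3.24e-07), Taar2, a trace amine receptor (−0.48, standard error 0.040, adjusted p = 1.72e-10), Reep1, which helps receptors to the cell surface (−0.44, standard error 0.042, adjusted p = 1.95e-09) and Ano2, the calcium-gated chloride channel of olfactory cilia (−0.41, standard error 0.049, adjusted p = 6.78e-08). These 5 lay below 0 in all 21 tumours.

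The other 2 low genes were Gng8, a G protein gamma subunit (−0.37, standard error 0.065, adjusted p = 2.49e-05 in limma), and Fpr2, a formyl peptide receptor (−0.21, standard error 0.067, adjusted p = 0.00897). Above were Adcy3, the adenylyl cyclase of odorant signalling (0.39, standard error 0.085, adjusted p = 0.000298), Nrp1, an axon guidance receptor (0.19, standard error 0.038, adjusted p = 0.000108), Kdm1a, a histone demethylase that acts in receptor choice (0.10, standard error 0.040, adjusted p = 0.0363), and Gnal, the olfactory G protein (0.09, standard error 0.034, adjusted p = 0.0200). Several of these calls moved with the processing: with the GC trend removed Lhx2 was −0.11 and Gng8 −0.14, Gnai2 was −0.09 and did not pass, and Kdm1a was −0.06, and with the loess-normalized ratios Taar2 was 0.12, Kdm1a −0.36 and Fpr2 −0.03. The array designs lay apart in several of the 21. Adcy3 averaged 0.69 on design 1 and 0.20 on design 2, Gnai2 −0.23 and −0.65, and Ano2 −0.17 and −0.56. Reep1 (−0.42 and −0.46) and Taar2 (−0.45 and −0.50) were closer. Gnb1, a G protein beta subunit that passed neither way, averaged 0.44 on design 1 and −0.35 on design 2. Between the groups limma called 0 of the 21, with 0 at an unadjusted p under 0.05.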

How the data were processed

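The authors deposited, for each 2-colour array, scanner intensities of both channels (Feature Extraction 11.0.1.1, probe positions in mm9:NCBI37:Jul2007), as raw means with local background and as processed signals after background subtraction and dye normalization. The log10 ratios deposited for the spots are reference over tumour, since at least 99.4% of them per array matched the processed signals that way (within 0.001). The authors' deposited log2 ratios after loess, which cover probes common to both array designs, were used as an alternative. The paper does not describe how the arrays were analysed.

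Processed signals gave the log2 ratio of tumour over reference, without control spots and the 88 to 228 outlier spots per array. Receptor clusters were fitted together with 1-Mb windows of the other autosomal probes, and genes as the mean of their probes, with lmFit, duplicateCorrelation (mouse as block), eBayes and Benjamini-Hochberg adjustment in limma 3.58.1 (R 4.3.3). The within-mouse correlation was −0.047 for regions and 0.035 for genes. Python 3.11.15, pandas 2.3.3 and numpy 2.4.6 did the rest. Probes were matched to GRCm38 (blastn 2.17.0 for near matches) for GC content and GENCODE M21 features, which hold 710 of the 718 symbols, and no coordinate was converted. The GC trend was a cubic fit on probe GC and on GC in the surrounding 50 kb, over autosomal probes that are not receptor probes. The limma fits with mouse as block were tested on simulated region and gene values, and the other steps were not.

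Named were the 6 lowest and 6 highest clusters past the threshold, the cluster with the most probes of each family and the 2 with the smallest p between groups. Receptor genes named were the 5 lowest and 5 highest with at least 2 probes on each design, and the 2 with the smallest p between groups. From the list of other genes of smell and pheromone sensing, up to 10 past the threshold were named. Gnal, an 11th, was added after its value was seen. Members and lists were chosen with earlier results of these data known. The 5 receptor probes on X were left out, and 529 receptor genes without a probe on both designs entered only family and cluster means.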

Additional observations from a re-analysis of the deposited data

How the results depend on the processing

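No paired analysis was possible because no mouse is in both groups. Leaving out each mouse in turn kept 4 clusters below and 4 to 5 above the chromosome, 80 to 84 receptor genes below and 58 to 63 above, and 0 clusters and 0 genes between groups. Over these omissions the family means ran from −0.040 to −0.022 (Olfr), 0.15 to 0.17 (Vmn1r) and 0.21 to 0.23 (Vmn2r), and the group differences from 0.027 to 0.070, −0.019 to 0.034 and 0.029 to 0.078.

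Clusters above the chromosome numbered 7 of 15 against the chromosome median (49.8% of all regions) and 8 of 15 against a local centre (38.2%). They numbered 1 of 11 with the loess-normalized ratios (36.3%) and 1 of 15 with the GC trend removed (31.7%). Over probes well above background they numbered 2 of 7 (44.4%). With at least 3 and at least 10 probes per design they numbered 7 of 26 (44.7%) and 1 of 6 (42.2%). Clusters below numbered 12 of 15 with the GC trend removed (32.7%) and 9 of 26 with at least 3 probes (29.8%). Receptor genes above numbered 34 of 189 with the GC trend removed (35.2% of all genes). Over probes well above background they numbered 36 of 109 (35.0%). With at least 2 probes per design 3 of 5 were above (41.3%) and 1 was below (30.2%). In family means the GC correction gave −0.16 for Olfr, −0.016 for Vmn1r and −0.061 for Vmn2r, and Vmn2r was −0.083 with loess-normalized ratios and −0.050 over common probes, with a group difference of −0.030. On slide 3 alone the group differences were −0.12 for Olfr and −0.18 for Vmn1r. Cluster values at least 0.2 below made up 7.94% with normexp (6.70% of all regions), 32.1% with the GC trend removed (7.29%), 28.6% over common probes (20.5%), 23.1% over probes well above background (10.6%), 25.1% and 18.3% with at least 3 and 10 probes (10.8% and 10.7%), and 26.7%, 5% and 4% on slides 1, 2 and 3. Thresholds of 0.1 and 0.3 gave 23.2% and 5.4% below (24.1% and 3.79% of all regions) and 33.7% and 13% above (33.4% and 7.94%). Values at least 0.2 above made up 8.23% with loess-normalized ratios (14.8% of all regions), 3.81% with the GC trend removed (6.40%), 8.23% over common probes (20.6%), 10.2% over probes well above background (16.1%) and 3.97% with at least 10 probes (15%). Over the omissions of a mouse the shares were 10.9 to 14.4% below and 17.3 to 19.6% above.

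Signs turned for Olfr90 to Olfr137 on chromosome 17 (−0.035 with normexp, −0.18 with loess-normalized ratios, −0.092 with the GC trend removed, −0.053 with the probe median), for Olfr24 to Olfr18 (−0.013 with loess-normalized ratios, −0.024 with the GC trend removed), and with the GC trend removed for Vmn2r100 to Vmn1r237 (−0.068), Olfr992 to Olfr142 (−0.15), Vmn1r66 to Vmn1r89 (−0.076), Olfr1180 (−0.067) and Kdm1a (−0.057). With loess-normalized ratios they turned for Olfr553 (0.031), Olfr56 (−0.17, and −0.15 on slide 1 alone), Taar2 (0.12) and Kdm1a (−0.36, and −0.16 over common probes), and between groups for Olfr1370 to Vmn1r219 (−0.0034) and Olfr90 to Olfr137 (−0.017). Between groups 0 clusters and 0 genes passed under each alternative. At an unadjusted p under 0.05 in limma there were 6 of 15 clusters with array weights, beside 17.6% of all regions. There was 1 of 15 with the GC trend removed, beside 2.54% of all regions, and 1 with the probe median. The causes were not tested beyond the values given. Leaving out the 4 tumours with under 90% of spots well above background was an alternative chosen after the data were seen. It gave 4 of 15 clusters below (31.8% of all regions) and 6 above (46.8%). Of 189 receptor genes 81 were below (37.7% of all genes) and 68 above (35.6%). There were 0 calls between groups, and 8.63% of cluster values lay at least 0.2 below (10.5% of all regions).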
